A study of Mus musculus with 6 samples.

Results

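Glucose-sensing genes were examined on Illumina bead arrays of the mouse ventromedial hypothalamus. They comprised 9 genes: Kcnj11 and Abcc8 (the ATP-sensitive potassium channel), Prkaa1, Prkaa2 and Prkab1 (AMP-activated protein kinase, AMPK), Slc2a1 and Slc2a3 (glucose transporters), Ucp2 (an uncoupling protein) and Nos1 (neuronal nitric oxide synthase). All probes of the raw signal table whose platform gene symbol was one of these were taken, which gave 11 of 45281 probes for 8 of the 9 genes. No probe used here is annotated to Ucp2, which is not analysed here. Of the 11 probes, 9 passed the filter on detection (a detection p-value under 0.05 on at least 3 of the 6 arrays) and measured 7 genes. The only probe of Kcnj11 did not pass.

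The SIRT1 deletion group held 3 RNA pools with the genotype Sf1-Cre; Sirt1loxP/loxP, and the control group 3 pools with the genotype Sirt1loxP/loxP. Mice of both groups were 16 weeks old, were of mixed genetic background and carried the floxed Sirt1 alleles, so the groups differ by the Sf1-Cre transgene. That transgene acts in cells that use the Sf1 (Nr5a1) promoter, while the RNA came from the whole dissected ventromedial hypothalamus, and neither how many animals a pool held nor their sex is stated. The p-values therefore measure the spread between these pools.

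Neurons of the ventromedial nucleus are known for sensing glucose and for starting the hormonal defence against hypoglycaemia. In glucose-excited neurons, glucose that enters through GLUT transporters is phosphorylated and oxidised, and the resulting ATP closes the ATP-sensitive potassium channel, which depolarises the cell. In glucose-inhibited neurons, falling glucose activates AMPK, and neuronal nitric oxide synthase and soluble guanylyl cyclase act in the same response. SIRT1 is a NAD-dependent deacetylase that reads the energy state of the cell, and the comparison asks whether the transcripts of this machinery differ when it is deleted in SF1 neurons.

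None of the 7 measured genes passed limma's test at an adjusted p under 0.05 over all 14221 features, beside 0.105% of all features (15, of which 8 were higher and 7 lower, or 7 higher and 14 lower with median scaling). With the p left unadjusted, 1 gene, Nos1, was under 0.05, beside 8.82% of all features (4.61% higher and 4.21% lower). Nos1 had a log2 fold change of 0.72 by the probe that represents it, while its other detected probe had -0.17. The AMPK subunits, the glucose transporters and Abcc8 had log2 fold changes between -0.14 and 0.11 by the probes that represent them. Of the 7 genes 5 were higher in deletion pools, with a median log2 fold change of 0.056 against -0.0046 over all features. With median scaling of the arrays, which moved the median of all features to -0.13, 1 of 7 was higher.

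The promoters of the gene with the largest difference and of the paralogous pair of AMPK catalytic subunits are shown as the RefSeq annotation of GRCm38.p6 gives them, each from 250 bases before to 50 bases after the annotated start of transcription. Windows were found for 6 of the 9 genes. The Nos1 window lies on the plus strand at chr5:117866589-117866888, the Prkaa1 window on the plus strand at chr15:5143611-5143910 and the Prkaa2 window on the minus strand at chr4:105109849-105110148. Capitals mark GC boxes.
Nos1: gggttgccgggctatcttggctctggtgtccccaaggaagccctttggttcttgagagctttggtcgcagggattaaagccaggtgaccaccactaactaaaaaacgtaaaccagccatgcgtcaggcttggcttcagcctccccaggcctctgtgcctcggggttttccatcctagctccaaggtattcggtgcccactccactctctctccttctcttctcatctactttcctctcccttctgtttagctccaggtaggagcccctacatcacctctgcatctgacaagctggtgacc
Prkaa1: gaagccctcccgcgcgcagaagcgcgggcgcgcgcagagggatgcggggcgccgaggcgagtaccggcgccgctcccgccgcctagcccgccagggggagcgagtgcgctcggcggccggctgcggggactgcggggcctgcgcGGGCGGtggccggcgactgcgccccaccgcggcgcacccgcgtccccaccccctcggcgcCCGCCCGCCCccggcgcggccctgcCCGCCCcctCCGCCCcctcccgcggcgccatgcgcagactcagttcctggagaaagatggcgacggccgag
Prkaa2: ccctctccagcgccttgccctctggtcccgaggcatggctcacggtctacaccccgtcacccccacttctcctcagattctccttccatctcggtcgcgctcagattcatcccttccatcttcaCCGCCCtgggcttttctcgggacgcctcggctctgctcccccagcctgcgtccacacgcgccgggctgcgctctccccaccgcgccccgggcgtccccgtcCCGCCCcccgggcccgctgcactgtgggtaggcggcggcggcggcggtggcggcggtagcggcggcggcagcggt

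The windows were searched on both strands for 7 motifs, none of which contains another: the SF1 core site CAAGGTCA, the cAMP response element TGACGTCA, the E-box CACGTG, the FOXO core site GTAAACA, an NF-kB site, the GC box GGGCGG and the TATA box TATAAA. The Nos1 window held no match to any of the 7. The Prkaa1 window held 5 GC boxes, of which a pair overlap, and the Prkaa2 window 2, a motif found in 35.7% of all 32851 windows of this length. The SF1 core site was in 1.56% of all windows, the cAMP response element in 1.79%, the E-box in 7.15%, the FOXO core site in 3.65%, the NF-kB site in 0.155% and the TATA box in 13.6%. The GC content was 54.7% for Nos1, 82% for Prkaa1 and 72.7% for Prkaa2, against a median of 52.7% over all windows. A match is a string of letters and not a shown binding site, the absence of one says nothing of the factor, and Nos1 has further starts of transcription that this window does not cover.

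Between 20053 and 20611 probes were detected per array. Median raw signals lay between 140.4 and 142.1 in deletion pools and between 145.5 and 149.4 in control pools, so the deletion arrays were dimmer before normalisation. Sirt1 itself had 7.77, 7.68 and 7.51 in deletion pools 1 to 3 and 7.81, 7.62 and 7.64 in control pools 1 to 3, as log2 intensities (limma adjusted p = 0.941), and the labels do not place its probe inside or outside the floxed part. Of 12 markers of ventromedial neurons, 11 had a probe and 10 were measured, Nr5a1 and Sox14 among them, while Lhx9 did not pass the filter. With no other tissue on these arrays, these markers do not test the dissection. Nr5a1 lay near the detection floor. The summed intensity of the 10 measured markers lay between 18460 and 20350 in deletion pools and between 19910 and 20690 in control pools. In such tissue RNA, fewer cells of a type and less RNA per cell cannot be told apart.

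**Figure D1:**
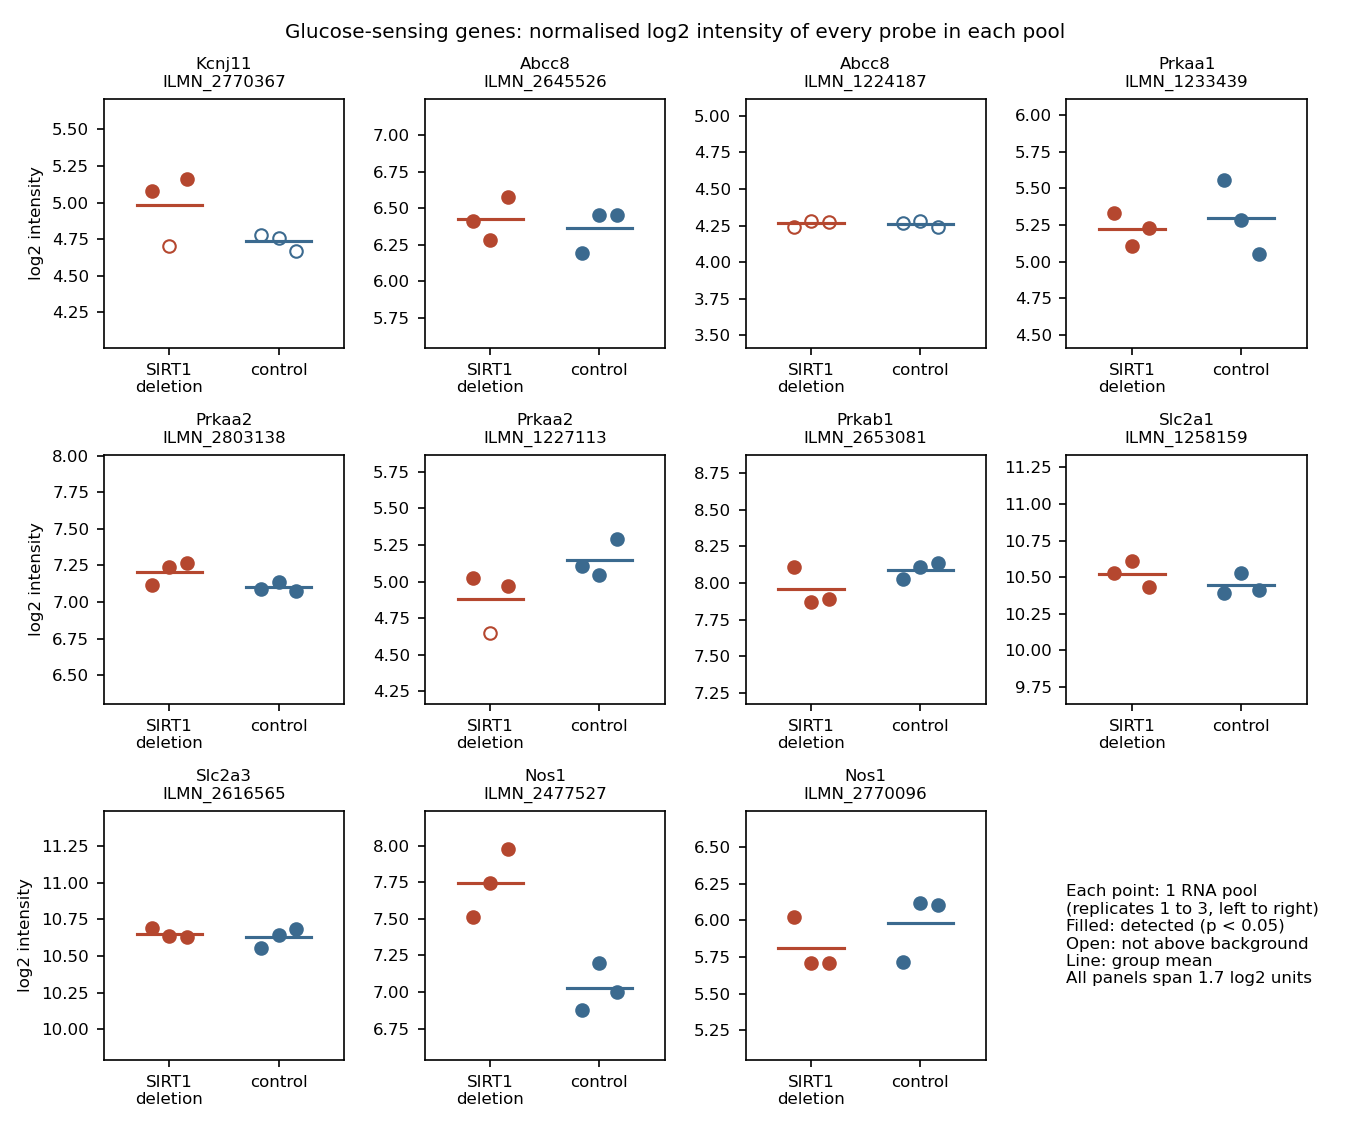
Normalised log2 intensity of all 11 probes of glucose-sensing genes in each pool (vertical axes, each panel spanning the same range), with SIRT1 deletion pools left of control pools, filled points for detected and open points for undetected values, and lines for group means. The deletion pools lie above all control pools for the Nos1 probe ILMN_2477527 and below them for the Prkaa2 probe ILMN_1227113, and the groups overlap in the other panels.

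The ATP-sensitive potassium channel is built from the inward rectifier encoded by Kcnj11, which forms the pore, and the sulfonylurea receptor SUR1 encoded by Abcc8, which regulates it; the genes are neighbours on chromosome 7. The Kcnj11 probe ILMN_2770367 had log2 intensities of 5.08, 4.70 and 5.16 in deletion pools 1 to 3 and 4.78, 4.75 and 4.67 in control pools 1 to 3. It was detected in deletion pools 1 and 3 and in no other pool, and the groups overlapped. Against the lowest detected values of the control arrays, between 4.86 and 4.89, the bound on the normalised scale was 1.08-fold higher in deletion pools. That bound includes the undetected value of deletion pool 2. Raw signals were 149, 140 and 152 in deletion pools and 150, 148 and 144 in control pools, and they overlapped as well. With no filter on detection the limma adjusted p of Kcnj11 was 0.683.

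Abcc8 was measured by the probe ILMN_2645526, with log2 intensities of 6.41, 6.28 and 6.58 in deletion pools and 6.19, 6.46 and 6.45 in control pools. The ranges overlapped. The log2 fold change was 0.056 (95% confidence bounds -0.20 and 0.32, limma adjusted p = 0.902), and it turned negative without control pool 1 (-0.030) or without deletion pool 3 (-0.022). The other Abcc8 probe, ILMN_1224187, was detected on none of the 6 arrays. Both channel genes are also known from pancreatic beta cells. Of 9 islet markers 8 had a probe and 1, Slc30a8, was measured, with intensities between 31.7 and 33.6 in deletion pools and between 27.6 and 34.8 in control pools, while Ins2, Gcg, Iapp, Ppy, Pdx1, Nkx6-1 and G6pc2 did not pass the filter on detection.

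Among channel genes of the same family, Abcc9, which encodes the receptor SUR2, had a log2 fold change of -0.085 (limma adjusted p = 0.845), and Kcnj8, the other pore subunit of such channels, was detected in 1 control pool and in no deletion pool. Of the 4 measured genes in the list of related channel subunits, 1 was higher and 3 were lower. The lowest p was that of Kcnj9, a G protein-gated rectifier, with 5.35, 4.99 and 4.98 in deletion pools and 5.30, 5.59 and 5.51 in control pools (log2 fold change -0.36, limma adjusted p = 0.525). Deletion pool 1 lay within the range of the controls. Kcnj6, another rectifier of that kind, had a log2 fold change of 0.12 and was detected on 3 of the 6 arrays.

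AMPK is a trimer of a catalytic alpha subunit, encoded by Prkaa1 or Prkaa2, a scaffolding beta subunit and a gamma subunit that binds AMP. Prkaa1, by the probe ILMN_1233439, had log2 intensities of 5.33, 5.11 and 5.23 in deletion pools and 5.56, 5.28 and 5.05 in control pools. The deletion values lay inside the range of the controls. The log2 fold change was -0.074 (95% confidence bounds -0.38 and 0.23, limma adjusted p = 0.89), and without control pool 1 it was 0.055.

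Prkaa2, which encodes the alpha2 subunit, had 2 probes that passed. The probe ILMN_2803138, which represents the gene, had 7.12, 7.24 and 7.26 in deletion pools and 7.09, 7.14 and 7.08 in control pools, a log2 fold change of 0.11 (95% confidence bounds -0.084 and 0.30, limma adjusted p = 0.713). Deletion pools 2 and 3 lay above all controls and deletion pool 1 among them. The probe ILMN_1227113 had 5.02, 4.65 and 4.97 in deletion pools and 5.11, 5.05 and 5.29 in control pools. All deletion pools were below all control pools there, which held for 6.84% of all measured probes, and the deletion pool 2 value was not above background. In the fit of every probe its log2 fold change was -0.27 (95% confidence bounds -0.55 and 0.015, limma adjusted p = 0.594).

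The 2 Prkaa2 probes thus had opposite signs. Their log2 difference, ILMN_2803138 minus ILMN_1227113, was 2.10, 2.59 and 2.29 in deletion pools and 1.98, 2.09 and 1.79 in control pools, with means of 2.33 ± 0.25 and 1.95 ± 0.15 (SD, n = 3 pools each). It was 0.38 larger in deletion pools with no overlap between the groups, and the exact two-sided permutation p was 0.1, the smallest that 3 against 3 pools allow. The share of other probe pairs that separate in this way was not counted. The value of 2.59 rests on deletion pool 2, where ILMN_1227113 was not above background, and without that pool the size was 0.24 (exact permutation p = 0.2). It was 0.13 without background correction and 0.16 in the authors' deposited normalised table, with an exact permutation p of 0.2 in both.

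Prkab1, which encodes the beta1 subunit, had log2 intensities of 8.11, 7.87 and 7.89 in deletion pools and 8.03, 8.11 and 8.14 in control pools by the probe ILMN_2653081. Deletion pools 2 and 3 lay below all controls, and deletion pool 1 was at the level of control pool 2. The log2 fold change was -0.14 (95% confidence bounds -0.35 and 0.084, limma adjusted p = 0.685).

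Of the other AMPK subunits, Prkab2 (beta2) had a log2 fold change of 0.063 and Prkag1 (gamma1) of 0.059, with limma adjusted p of 0.925 and 0.869. Prkag2, a further gamma subunit, did not pass the filter: its log2 intensity was 6.62 in deletion pool 3, where it was detected, and between 4.33 and 4.40 in the other 5 pools, where it was not. Its raw signal was 212 in that pool and between 125 and 136 in the others. Of 5 measured upstream kinases and partners, 2 were higher and 3 lower. They included Stk11, which encodes the AMPK-activating kinase LKB1 (log2 fold change -0.055), and Camkk2, a calcium-dependent AMPK kinase (0.11, with -0.065 and -0.082 for its other detected probes). Stradb, which encodes an LKB1-binding pseudokinase, had 8.53, 8.34 and 8.43 in deletion pools and 8.75, 8.71 and 8.77 in control pools. All deletion pools lay below the control pools there, as for 7.21% of all features. The log2 fold change was -0.31 (limma unadjusted p = 0.00658, adjusted p = 0.427), while the other detected Stradb probes gave -0.0011 and -0.18.

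Of 9 measured AMPK substrates and effectors, 3 were higher and 6 lower, and the median log2 fold change was -0.033. The lowest p were those of Tbc1d1, a GTPase-activating protein in GLUT4 traffic (-0.18), Tsc2, an inhibitor of mTOR signalling (-0.17), and Mtor itself (0.17), with limma adjusted p between 0.564 and 0.643. Another detected Tbc1d1 probe gave 0.20 and another detected Mtor probe -0.26, each with the sign turned.

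Slc2a1 encodes GLUT1, the transporter of the blood-brain barrier and of glia. Its probe ILMN_1258159 had log2 intensities of 10.53, 10.61 and 10.43 in deletion pools and 10.39, 10.53 and 10.41 in control pools. The groups overlapped, with a log2 fold change of 0.081 (95% confidence bounds -0.12 and 0.29, limma adjusted p = 0.808). On the linear scale that interval runs from -8.19% to 21.9%. Markers of brain endothelium and pericytes, of which 10 of 12 were measured (Abcb1a and Kdr were not), summed to between 2980 and 3263 in deletion pools and between 3109 and 3151 in control pools. Of the 10, 5 were higher and 5 lower.

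Slc2a3 encodes GLUT3, the main glucose transporter of neurons. Its probe ILMN_2616565 had 10.69, 10.64 and 10.63 in deletion pools and 10.56, 10.65 and 10.69 in control pools. All 3 deletion values lay close together within or at the edge of the control range. The log2 fold change was 0.022 (95% confidence bounds -0.17 and 0.21, limma adjusted p = 0.954), which is -10.8% to 15.7% on the linear scale, and it was -0.014 without control pool 1. Among the members' probes that passed the filter, this one varied least between pools of a group. Its pooled SD was 0.052, and 4.47% of all measured probes had a lower one. The pooled SD of the 9 measured probes ran from 0.052 to 0.21, with a median of 0.15 against 0.14 over all measured probes.

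Of the other glucose and monocarboxylate transporters 5 were measured, 3 higher and 2 lower. Slc2a6 had 8.86, 9.01 and 9.06 in deletion pools and 8.84, 8.86 and 8.79 in control pools, a log2 fold change of 0.15 (limma adjusted p = 0.639), and its deletion pools all lay above the control pools, as for 7.04% of all features. Slc2a8, which encodes the intracellular transporter GLUT8, had 0.24 (limma adjusted p = 0.564), though its other detected probes gave 0.00016 and -0.085. Slc16a3, a lactate exporter, had 0.23 and was detected on 3 of the 6 arrays. Slc2a4, the insulin-responsive GLUT4, had -0.060 (limma adjusted p = 0.938).

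Nos1 makes nitric oxide in neurons. By the probe ILMN_2477527 its log2 intensity was 7.51, 7.74 and 7.98 in deletion pools 1 to 3 and 6.88, 7.20 and 7.00 in control pools 1 to 3. All deletion pools were above all control pools, and this was the only measured gene of the 7 in which the groups did not overlap, beside 14.3% of all features in either direction (7.04% above and 7.21% below). The separation was also present before any correction: raw signals were 285, 324 and 357 in deletion pools and 246, 276 and 257 in control pools, although the deletion arrays were dimmer overall. The means were 7.75 ± 0.23 and 7.03 ± 0.16 in deletion and control pools (SD, n = 3 each), a log2 fold change of 0.72 (95% confidence bounds 0.41 and 1.03), or 64.5% on the linear scale (32.7% to 103.8%).

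The unadjusted limma p of Nos1 was 0.000593, rank 40 among the 14221 features and rank 26 among the 11049 named genes, and the adjusted p over all features was 0.206. Over 18 alternatives the log2 fold change kept its sign and ran from 0.28, the mean of both detected probes, to 0.84, without deletion pool 1. It passed in 1 of them, which used an intensity trend with a robust prior and gave a limma adjusted p of 0.019, against a highest of 0.554. It was 0.42 without background correction and 0.49 in the authors' deposited normalised table.

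The other Nos1 probe, ILMN_2770096, was detected on all 6 arrays and did not share this pattern. Its log2 intensity was 6.02, 5.71 and 5.71 in deletion pools and 5.72, 6.12 and 6.11 in control pools, so that deletion pools 2 and 3 were lowest and the groups overlapped. In the fit of every probe its log2 fold change was -0.17 (95% confidence bounds -0.49 and 0.15, limma adjusted p = 0.741). The platform annotation ties this probe to a RefSeq transcript of Nos1, while it gives ILMN_2477527 the gene symbol with no transcript accession. Which part of the Nos1 transcripts each probe reads is not stated.

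The difference between the 2 Nos1 probes, ILMN_2477527 minus ILMN_2770096, was 1.49, 2.04 and 2.27 on the log2 scale in deletion pools and 1.16, 1.08 and 0.90 in control pools. It was 0.89 larger in deletion pools (means 1.93 ± 0.40 and 1.05 ± 0.14, SD, n = 3 each), and the groups did not overlap. How often probe pairs of other genes separate the groups in this way was not counted, so no share stands beside it. The exact two-sided permutation p was 0.1, the smallest that this design allows. Over 13 alternatives the size ran from 0.48 to 1.11. Among 9 measured probes, 0 passed a limma adjusted p under 0.05 in the fit of every probe, beside 0.049% of all measured probes, and 1, ILMN_2477527, had an unadjusted p under 0.05, beside 8.47%.

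**Figure D2:**
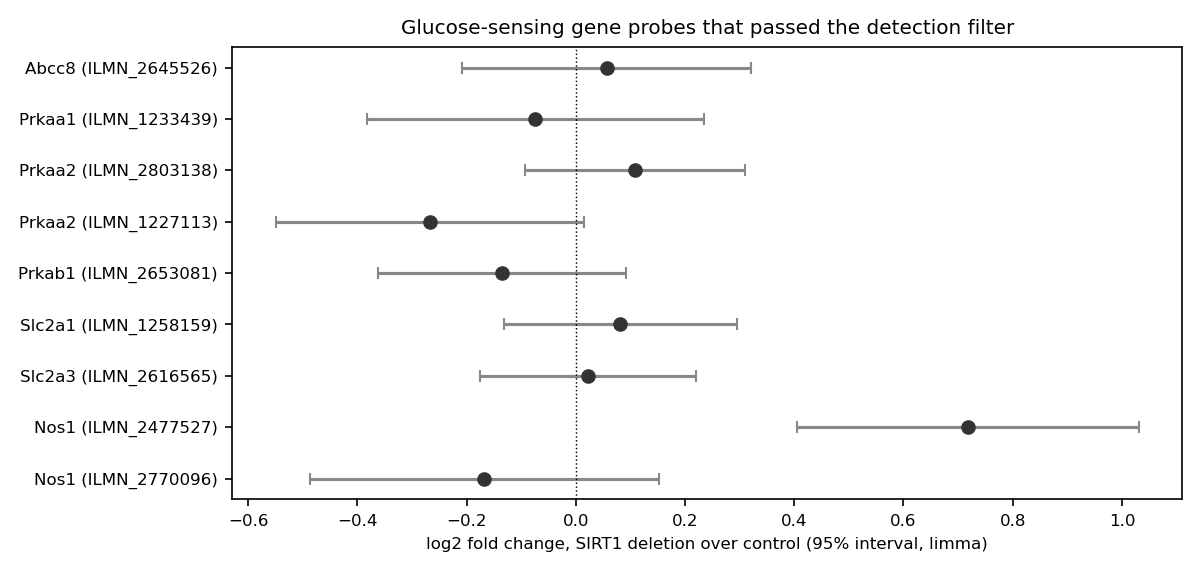
Log2 fold change of SIRT1 deletion over control (horizontal axis) with 95% intervals from the limma fit of every probe, for the 9 probes that passed the detection filter. The interval of ILMN_2477527 for Nos1 (0.41 to 1.03) lies above 0, and the intervals of the other 8 include 0.

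**Figure D3:**
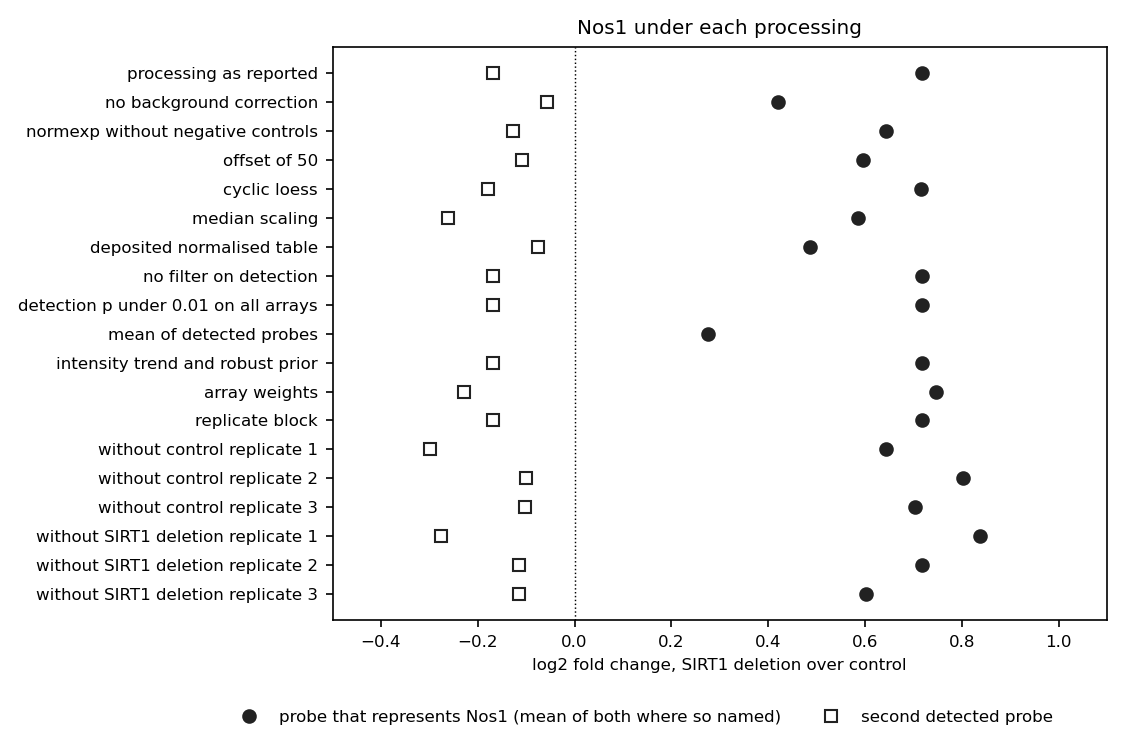
Log2 fold change of Nos1 (horizontal axis) under the processing as reported and 18 alternatives, for the probe that represents the gene (filled circles) and the other detected probe (open squares). In the alternative named mean of detected probes, the filled circle is the mean of both probes and there is no open square. Filled circles lie between 0.28, which is that mean, and 0.84. Open squares, present for 17 alternatives, lie between -0.30 and -0.057.

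Marker lists of other cell types were read beside Nos1. Tanycyte and ependymal markers, of which 5 of 8 were measured and 4 were higher, summed to between 529.9 and 620.9 in deletion pools and between 509.0 and 532.3 in control pools, with Foxj1 and Lhx2 not passing the filter. Of measured astrocyte markers 7 of 8 were higher, and of oligodendrocyte markers 5 of 6. The counts were 4 of 9 for microglia, 1 of 3 for choroid plexus and 1 of 6 for meninges. Among all features 48.5% were higher. Neuronal markers, 5 of 8 measured, summed to between 32460 and 34100 in deletion pools and between 32230 and 35220 in control pools. Of the 10 measured markers of ventromedial neurons, 2 were higher and 8 lower, with a median log2 fold change of -0.071 and none past limma's adjusted threshold. Sox14, a transcription factor, had 8.33, 8.18 and 8.37 in deletion pools and 8.58, 8.78 and 8.61 in control pools (log2 fold change -0.36, limma adjusted p = 0.427). Nr5a1, the gene of SF1, had 5.30, 5.72 and 5.46 in deletion pools and 5.11, 4.90 and 5.13 in control pools (log2 fold change 0.45, limma adjusted p = 0.427). The lowest detected values per array lay between 4.86 and 4.90. Its other probe did not pass the filter, being detected in 1 deletion pool and in no control pool. Of 11 measured exocrine pancreas markers, 11 were lower and 5 passed limma's adjusted threshold, beside 0.105% of all features. Sums lay between 2736 and 2932 in deletion pools and between 4106 and 4736 in control pools. The 3 of lowest p, Try5, Zg16 and Try4, were detected in 3 control pools and 0 deletion pools. They thus passed the filter only through the control pools, and their deletion values were not above background. The part of these lists in the Nos1 values, and in those of the other members, was not tested.

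The 3 named genes whose log2 intensities ran most like those of ILMN_2477527 over the 6 arrays were H2-DMb2 (Pearson r = 0.997), Dusp16 (0.986) and Pdlim4 (0.984). These are the highest values among 11048 genes, of which 138 had an r over 0.9, and they share arrays and normalisation. Genes picked for likeness to a probe that separates the groups tend to separate them too, so their differences are no separate result. H2-DMb2, which encodes a chaperone of MHC class II loading, had 5.24, 5.35 and 5.51 in deletion pools and 4.85, 5.01 and 4.95 in control pools. It was near the detection floor and was detected in 3 deletion pools and 2 control pools. Dusp16, a MAP kinase phosphatase, had 8.41, 8.44 and 8.53 in deletion pools and 8.24, 8.28 and 8.25 in control pools. The log2 fold change of Pdlim4, which encodes a PDZ and LIM domain protein, was 0.21.

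Of the other genes of nitric oxide synthesis and signalling 14 were measured, 4 higher and 10 lower, with a median log2 fold change of -0.082. None passed limma's adjusted threshold, and 2 had an unadjusted p under 0.05, both lower, which is 14.3% beside 8.82% of all features in either direction and 4.21% in the lower one. In both the deletion pools lay below all control pools, as for 7.21% of all features. Gucy1b1, the beta subunit of soluble guanylyl cyclase that binds nitric oxide, had 7.86, 7.90 and 7.91 in deletion pools and 8.08, 8.06 and 8.08 in control pools. The pools of each group lay close together, with a log2 fold change of -0.19 (95% confidence bounds -0.36 and -0.0079, limma adjusted p = 0.55). Prkg2, a cGMP-dependent kinase, had 7.39, 7.27 and 7.24 in deletion pools and 7.44, 7.55 and 7.80 in control pools (log2 fold change -0.30, limma adjusted p = 0.535).

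Nos3, the endothelial synthase, had a log2 fold change of 0.22 (limma adjusted p = 0.564), and its other detected probes gave 0.15 and 0.23. Its deletion pools, at 7.48, 7.54 and 7.52, lay above control pools at 7.27, 7.14 and 7.46, as for 7.04% of all features. Nos1ap, which encodes an adaptor of neuronal nitric oxide synthase, had -0.17 (limma adjusted p = 0.821), and its groups overlapped.

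Of 8 measured genes of glucose phosphorylation and lactate, 4 were higher and 4 lower. Ldhb, a lactate dehydrogenase subunit, had 5.63, 5.36 and 5.42 in deletion pools and 5.63, 5.67 and 5.84 in control pools, so that deletion pool 1 was level with control pool 1 to 2 decimals (log2 fold change -0.25, limma adjusted p = 0.558). Hk1, the main brain hexokinase, had 0.088 (limma adjusted p = 0.873), and another detected Hk1 probe gave -0.52. Pdk4, which inhibits pyruvate dehydrogenase, had 6.98, 6.37 and 5.72 in deletion pools and 6.26, 6.09 and 6.15 in control pools, so the deletion pools spread widely around the controls.

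With Ucp2 not analysed here, the other uncoupling protein genes measured were Slc25a14 (log2 fold change -0.026) and Slc25a27 (-0.020), and Ucp1 and Ucp3 did not pass the filter on detection. Of 9 measured candidate sensors of other kinds, 4 were higher and 5 lower. The lowest p among them were those of Kcnk3, a pH-sensitive leak channel (-0.19), Mlxip, a glucose-responsive transcription factor (0.11), and Txnip, an inhibitor of thioredoxin induced by glucose (-0.18), with limma adjusted p between 0.587 and 0.783.

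Together the 9 lists of other pathway genes held 58 measured genes, 23 higher and 35 lower in deletion pools. An unadjusted p under 0.05 was reached by 5, all lower, which is 8.62% beside 8.82% of all features in either direction and 4.21% in the lower direction. Those 5 were Kcnj9, Stradb, Ldhb, Gucy1b1 and Prkg2, and 0 of 58 passed limma's adjusted threshold. The pools did not overlap for 2 higher genes, Slc2a6 and Nos3, and for 5 lower ones, Stradb, Tbc1d1, Ldhb, Gucy1b1 and Prkg2, beside 7.04% and 7.21% of all features. By the probes that represent them, the log2 fold changes of the 58 genes ran from -0.36 to 0.24. Nos1 lay outside that range by the probe that represents it (0.72) and inside it by its other detected probe (-0.17). Another detected Hk1 probe, at -0.52, also lay outside it.

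**Figure D4:**
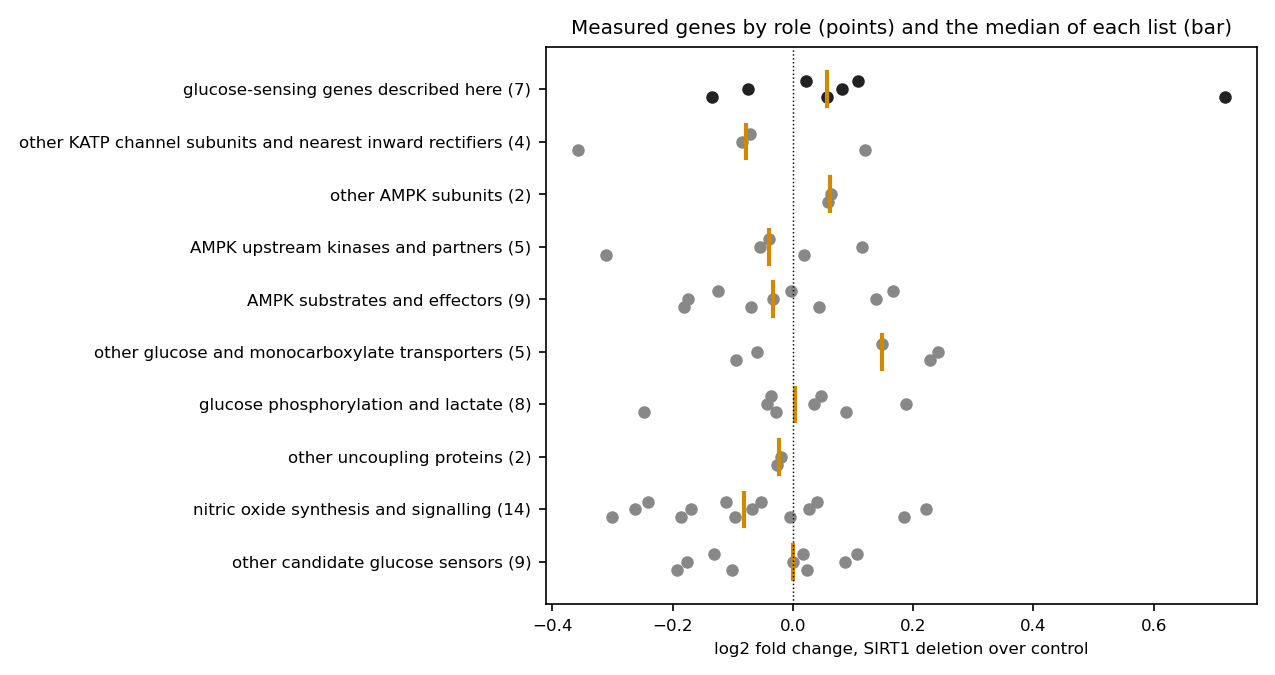
Log2 fold change of SIRT1 deletion over control (horizontal axis) for each measured gene (points), by role, with the median of each list as a bar and the number of measured genes in parentheses. Each gene is shown by the probe that represents it. Nos1, at 0.72, lies apart from the other 6 genes of its row, which run from -0.14 to 0.11. It also lies apart from the 58 genes of the other lists, which run from -0.36 to 0.24. The other detected Nos1 probe, at -0.17, is not plotted and is within the range of the 58.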

How the data were processed

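Per the labels' protocols, biotinylated cRNA from 6 RNA pools was hybridised, and each pool gave 1 array. The authors' deposited raw table holds the mean bead intensity (linear scale) with its detection p-value, per the file headers, on 45281 probes. It was neither background-subtracted nor scaled, as its values show. A deposited table of quantile-normalised intensities, with no stated method, served as an alternative. The platform annotation gave 1 symbol to 34885 probes, several to 18 and none to 10378.

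Using limma 3.58.1 (R 4.3.3), normexp correction of the background drew on the detection p-values. After adding 16 to each value, quantile normalisation and the log2 transform followed. Probes detected at p under 0.05 on at least 3 of 6 arrays were kept (20402). The probe with the highest mean stood for its gene, leaving 14221 features, and a fit of every kept probe gave the values of other probes. The group comparison used lmFit and eBayes, with Benjamini-Hochberg adjustment over every feature. A positive fold change means higher in SIRT1 deletion pools, and the added 16 compresses those of dim probes. Where no array of a group was above background, a bound was taken: on each array the probe's own value or the lowest detected one, whichever was higher, and then their mean. Single values had an exact two-sided permutation test. The procedure was tried on simulated data with independent normal errors, a setting that the real pools need not share. The number of arrays limits the precision.

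The members, gene lists and tests were chosen with earlier results of these data known. Genes named beside the members were the up to 3 of lowest p in each pathway list, a fixed set named whatever their values (1 of which is not reported here), and the 3 most like Nos1. Older list symbols (Gucy1a3, Gucy1b3) were updated through RefSeq. In the fit as reported, replicate numbers were not used to pair the pools. The correlations of same-numbered deviations from group means were -0.052, -0.044 and -0.023. Those of differently numbered ones ran from -0.013 to 0.051. Such values cannot exclude that same-numbered pools were handled together. Python 3.11.15 with matplotlib 3.10.9 drew the figures.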

Additional observations from a re-analysis of the deposited data

How the results depend on the processing

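Of the 7 measured genes, 0 passed under 18 of 19 alternatives and 1, Nos1, under an intensity trend and robust prior, which likewise gave 1 member probe. Over all features the calls numbered 15 as reported, 9 without a filter on detection, 4 with detection p under 0.01 on all arrays, 29 with the intensity trend and robust prior, and 6 to 10 with a pool left out. With the replicate block they numbered 10, Nos1 had an adjusted p of 0.238, and no member's call changed. Median scaling moved the median of all features to -0.13 and turned the signs of Abcc8 (-0.057), Prkaa2 (-0.012), Slc2a1 (-0.092) and Slc2a3 (-0.16). Relative to that median, Abcc8, Prkaa2 and Slc2a1 stayed positive (0.075, 0.12 and 0.039), Slc2a3 was -0.024 and Prkaa1 0.0063. The mean of detected probes turned Prkaa2 to -0.080, as both of its probes then enter; for the other turns of sign and moved counts the cause was not tested. With a pool left out, Abcc8 ran from -0.030 to 0.13, Prkaa1 from -0.19 to 0.055 and Slc2a3 from -0.014 to 0.050, and Nos1 from 0.60 to 0.84. Slc2a1 ran from 0.038, without deletion pool 2, to 0.13, and Prkab1 from -0.21, without deletion pool 1, to -0.091. Both Nos1 probes kept their signs in each alternative run. Kcnj11, the Prkaa2 probe ILMN_1227113, Prkaa1 and, among the markers, Nr5a1 lie near the detection floor, so a difference there would be compressed.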
